A study of Homo sapiens with 36 samples.

Results

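The clustered protocadherins are the coding genes that lie side by side in 3 clusters, alpha, beta and gamma, on human chromosome 5q31. They were chosen by name alone, as every protein-coding gene of GENCODE v44 whose symbol carries PCDHA, PCDHB, PCDHGA, PCDHGB, PCDHGC or PCDHAC followed by a number, and all 53 were found by Ensembl ID among the 19942 protein-coding genes and 60648 gene IDs of each library. The alpha cluster held 15 of them, the beta cluster 16 and the gamma cluster 22. By sequence type they fall into 13 alpha, 16 beta, 12 gamma A, 7 gamma B and 5 C-type genes (PCDHAC1, PCDHAC2, PCDHGC3, PCDHGC4 and PCDHGC5). The values are bulk RNA-seq read counts of polyadenylated RNA from HCT116, an established human colorectal carcinoma line, in 36 libraries, 3 in each of 12 groups. UHRF1-AID cells carry an auxin-inducible degron on UHRF1, the factor that brings DNMT1 to newly replicated DNA. DNMT1-AID cells carry the degron on DNMT1, the maintenance DNA methyltransferase, and UHRF1-AID/DNMT1-AID cells carry it on both. WT cells carry neither degron tag. All 4 lines express the plant ubiquitin ligase subunit OsTIR1 from a doxycycline-inducible promoter. All received doxycycline with auxinole for a day and then doxycycline with auxin, and each line was sampled on days 2, 6 and 8. So WT cells had the same drugs for the same time as the degron lines. The study generally used 3 clones per degron line, but no label ties a library to a clone, so p-values measure the spread between these libraries.

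A clustered protocadherin is a single-pass cadherin-like protein of the cell surface, best known from neurons, where each cell expresses its own small set of isoforms. In the alpha and gamma clusters, each member has 1 variable first exon with its own promoter, which is spliced to constant exons that all members of the cluster share. Beta members are single-exon genes with no constant exon. Which promoters are used is known to go with DNA methylation of the promoter and with binding of CTCF, an insulator protein that brings chosen promoters to distant enhancers, and most of these promoters carry a conserved element with CGCT at its core.

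Promoter windows of 8 members are shown, because on these members the results below turn and because they show which promoters hold the element. They are the 300 bases from 250 before to 50 after the start site in RefSeq GRCh38.p14, all on the plus strand of chromosome 5, 5′ to 3′. Capitals mark the copy of the 8-letter core found in that window, namely ATGTCGCT for alpha, GTGGCGCT for beta and GNCGCTGT for gamma members. The first base of the core lay 42 bases before the start site in PCDHGA10 and PCDHB13, 43 in PCDHGA2, 44 in PCDHA10, 59 in PCDHB2 and 72 in PCDHGC3.
PCDHB2, chr5:141094365-141094664: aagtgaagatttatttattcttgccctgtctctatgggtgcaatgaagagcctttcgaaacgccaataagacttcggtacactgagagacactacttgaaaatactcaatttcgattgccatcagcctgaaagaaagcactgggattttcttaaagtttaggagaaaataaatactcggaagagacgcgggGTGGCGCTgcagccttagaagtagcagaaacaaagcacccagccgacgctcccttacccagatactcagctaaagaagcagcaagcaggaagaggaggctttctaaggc
PCDHB13, chr5:141213669-141213968: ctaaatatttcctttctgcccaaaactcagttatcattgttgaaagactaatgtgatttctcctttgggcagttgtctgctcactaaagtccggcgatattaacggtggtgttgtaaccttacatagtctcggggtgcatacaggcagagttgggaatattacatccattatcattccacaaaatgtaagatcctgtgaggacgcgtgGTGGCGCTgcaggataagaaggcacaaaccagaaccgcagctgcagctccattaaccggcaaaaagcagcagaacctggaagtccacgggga
PCDHGA2, chr5:141338510-141338809: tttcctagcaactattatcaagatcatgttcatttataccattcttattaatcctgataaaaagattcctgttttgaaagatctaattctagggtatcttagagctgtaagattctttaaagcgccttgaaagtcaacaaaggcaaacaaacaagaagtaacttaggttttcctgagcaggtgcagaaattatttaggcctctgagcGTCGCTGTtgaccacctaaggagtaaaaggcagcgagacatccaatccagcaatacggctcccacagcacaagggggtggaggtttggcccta
PCDHGA10, chr5:141412737-141413036: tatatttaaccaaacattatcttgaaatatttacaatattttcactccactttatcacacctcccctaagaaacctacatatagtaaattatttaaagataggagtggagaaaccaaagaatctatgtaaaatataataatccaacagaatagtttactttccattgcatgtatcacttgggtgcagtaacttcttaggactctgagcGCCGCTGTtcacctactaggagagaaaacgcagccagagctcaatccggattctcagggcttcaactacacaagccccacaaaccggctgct
PCDHGC3, chr5:141475716-141476015: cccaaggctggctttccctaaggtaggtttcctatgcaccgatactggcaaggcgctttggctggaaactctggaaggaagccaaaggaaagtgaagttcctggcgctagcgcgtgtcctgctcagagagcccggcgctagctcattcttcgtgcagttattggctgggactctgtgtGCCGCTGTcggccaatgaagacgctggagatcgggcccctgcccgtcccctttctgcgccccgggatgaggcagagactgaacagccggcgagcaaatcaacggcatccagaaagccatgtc
PCDHA10, chr5:140855647-140855946: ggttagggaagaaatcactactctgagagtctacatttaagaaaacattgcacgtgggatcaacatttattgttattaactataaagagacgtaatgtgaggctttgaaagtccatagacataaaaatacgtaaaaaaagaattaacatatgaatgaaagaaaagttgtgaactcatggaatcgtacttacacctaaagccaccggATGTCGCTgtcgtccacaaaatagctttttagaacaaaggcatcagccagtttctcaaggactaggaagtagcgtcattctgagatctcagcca
PCDHAC1, chr5:140926049-140926348: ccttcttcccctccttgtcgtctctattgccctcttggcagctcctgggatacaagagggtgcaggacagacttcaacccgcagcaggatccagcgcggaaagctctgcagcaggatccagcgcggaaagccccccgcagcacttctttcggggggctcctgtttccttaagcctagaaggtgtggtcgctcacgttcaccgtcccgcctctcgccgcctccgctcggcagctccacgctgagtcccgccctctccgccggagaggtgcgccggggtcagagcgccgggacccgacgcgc
PCDHAC2, chr5:140966226-140966525: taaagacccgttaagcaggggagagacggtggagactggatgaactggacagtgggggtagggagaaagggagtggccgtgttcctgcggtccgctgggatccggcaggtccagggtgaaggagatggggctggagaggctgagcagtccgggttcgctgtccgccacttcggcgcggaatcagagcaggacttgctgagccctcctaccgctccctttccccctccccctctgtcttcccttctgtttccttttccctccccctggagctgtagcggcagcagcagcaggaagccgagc

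RefSeq windows were matched for 47 of the 53 members, and because 5 of them had 2 windows there were 52. The other 6 were PCDHA3, PCDHA13, PCDHB6, PCDHB11, PCDHGA12 and PCDHGC5. The letters searched were chosen after reading the members' own windows, and both strands were searched. ATGTCGCT was found in 9 of 11 alpha windows and in 0.234% of all 35116 windows. GTGGCGCT was in 13 of 14 beta windows and in 1.15% of all windows, and no window of another subfamily held it. GNCGCTGT was in 10 of 11 gamma A, 6 of 11 gamma B, 3 of 5 C-type, 5 of 11 alpha and 1 of 14 beta windows, against 4.35% of all windows. Several alpha windows thus hold both the alpha and the gamma spelling, which overlap there in the letters GTCGCT. The windows of PCDHAC1 and PCDHAC2 had none of the 3 spellings. CpG dinucleotides, the sites that DNMT1 methylates, numbered 27 in the PCDHAC1 window, 18 in PCDHGC3 and 15 in PCDHAC2, against 10 in PCDHB2 and PCDHB13, 8 in PCDHA10 and 5 in PCDHGA2 and PCDHGA10. The median was 23 in C-type windows, 13 in gamma B, 7.5 in beta, 7 in alpha, 5 in gamma A and 14 over all windows.

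The deposited counts give the alpha and gamma members a form that decides what can be read from them. In each library the members of a cluster repeated the same number, to which most added few counts of their own, while PCDHAC2 and PCDHGA10 added many. In the alpha cluster 63.3% of the 540 member values equalled the lowest member's count exactly, and in the gamma cluster 30.1% of 792 did. The lowest count of a cluster is therefore given here as the shared count, and the rest of a member's count as its own count. The shared count is taken as that of the constant exons, 3 exons of 2869 bases in alpha and 3 exons of 2177 bases in gamma, although how the counting treated features that overlap is not given in the sources used here. Shared counts made up from 87.86% to 98.46% of the summed alpha member counts over the 36 libraries and from 90.24% to 98.25% of the gamma ones. For a member with few counts of its own, the fold change as deposited is thus nearly that of 1 shared measurement. For PCDHAC2 and PCDHGA10 it mixes the shared count with a large own count. The members of a cluster as deposited are not separate observations. Own counts may be too low where the lowest member had reads of its own. The split was chosen after the counts were seen.

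Read totals were 21074536 to 37175136 per library with a median of 25031562.5. All 53 members together had 3062 to 28470 counts per library, most of them the repeated shared counts. Levels below are CPM, counts per library scaled to one common depth after TMM, and are compared between groups only, not between genes of different length. UHRF1 and DNMT1 transcripts were present in every line (UHRF1 36 to 158 CPM in UHRF1-AID and 41.7 to 151 CPM in WT, DNMT1 14.9 to 94.1 CPM in DNMT1-AID and 47.8 to 231 CPM in WT). The degron removes the protein, so these levels are no check of the depletion.

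The beta genes, which are near silent in WT cells, were higher in UHRF1-AID and in UHRF1-AID/DNMT1-AID cells by day 8, and not in DNMT1-AID cells. The summed beta counts on day 8 were 10.6, 13 and 8.52 CPM in UHRF1-AID, 2.22, 0.728 and 0.814 CPM in DNMT1-AID and 9.38, 12 and 24.6 CPM in UHRF1-AID/DNMT1-AID, against 1.19, 1.80 and 2.73 CPM in WT. Every library of UHRF1-AID and UHRF1-AID/DNMT1-AID lay above every WT library, the DNMT1-AID and WT libraries overlapped, and replicate 3 of UHRF1-AID/DNMT1-AID was far above the other two. Over all genes, all 3 libraries lay above or below all 3 WT libraries on day 8 in 28.5% or 26.1% of genes for UHRF1-AID, 29.7% or 27.6% for DNMT1-AID and 36.1% or 33.7% for UHRF1-AID/DNMT1-AID. Members with at least 3 counts numbered 12 to 13 of 16 in UHRF1-AID cells, 1 to 7 in DNMT1-AID cells and 13 to 14 in UHRF1-AID/DNMT1-AID cells, against 4 to 8 in WT. On day 6 the sum was 2.93 to 6.93 CPM in UHRF1-AID and 3.40 to 8.68 CPM in UHRF1-AID/DNMT1-AID, against 1.30 to 2.53 CPM in WT, and on day 2 the groups overlapped. In bulk RNA, fewer cells reading a gene and less RNA of it per cell cannot be told apart. Fibroblast marker genes summed to 31.1 to 37.5 CPM in UHRF1-AID, 22.4 to 24.0 CPM in DNMT1-AID and 34.2 to 45.9 CPM in UHRF1-AID/DNMT1-AID on day 8, against 19.5 to 23.6 CPM in WT, with 5 of the 7 markers below 1 CPM in every library. Neuronal markers summed to 363.5 to 522.3 CPM in UHRF1-AID, 409.6 to 454.5 CPM in DNMT1-AID and 349.9 to 381.6 CPM in UHRF1-AID/DNMT1-AID, against 377.8 to 412.0 CPM in WT, with 5 of 10 below 1 CPM in every library. RBFOX3 and GAP43 were called higher in UHRF1-AID/DNMT1-AID, where the median log2 fold change over the 6 neuronal markers tested was 0.04. Epithelial markers summed to 4131 to 5253 CPM in UHRF1-AID, 6441 to 7583 CPM in DNMT1-AID and 5824 to 7099 CPM in UHRF1-AID/DNMT1-AID, against 3763 to 3774 CPM in WT. Of these 6 genes 3 rose in UHRF1-AID cells, 4 in DNMT1-AID cells and 4 in UHRF1-AID/DNMT1-AID cells, where 1 fell. Of 3 fibroblast markers tested, 3 rose in UHRF1-AID cells, 0 in DNMT1-AID cells and 2 in UHRF1-AID/DNMT1-AID cells, and 0 fell. Of the neuronal markers, 1 rose in UHRF1-AID cells, 1 rose and 1 fell in DNMT1-AID cells and 2 rose in UHRF1-AID/DNMT1-AID cells. Of all genes 24.2%, 25.1% and 35.7% rose in these lines and 21.0%, 22.4% and 32.8% fell. The part of any of these lists in the member results was not tested.

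**Figure D1:**
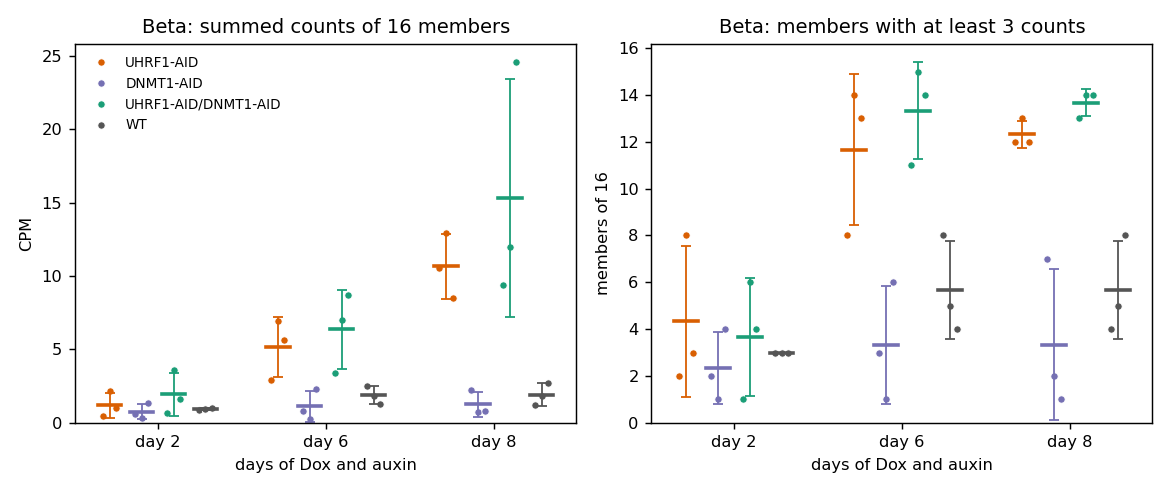
Summed counts of the 16 beta members in CPM (left) and the number of beta members with at least 3 counts (right) by days of Dox and auxin, for UHRF1-AID, DNMT1-AID, UHRF1-AID/DNMT1-AID and WT. Points are libraries, bars the mean ± SD of 3 libraries. On day 8 the UHRF1-AID libraries sit at 8.52 to 13 CPM and the UHRF1-AID/DNMT1-AID libraries at 9.38 to 24.6 CPM, above DNMT1-AID and WT, which reach 2.22 and 2.73 CPM.

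Of the 16 beta members, 12 passed the filter on low counts, while PCDHB1, PCDHB6, PCDHB12 and PCDHB15 did not. By edgeR's quasi-likelihood test with Benjamini-Hochberg adjustment, 8 of the 12 rose in UHRF1-AID on day 8 and 0 fell, where 24.2% of all genes tested were higher and 21.0% lower. In UHRF1-AID/DNMT1-AID 11 rose and 0 fell, against a background of 35.7% higher and 32.8% lower. In DNMT1-AID 0 rose and 1 fell, where 25.1% of all genes were higher and 22.4% lower. The median log2 fold change of the 12 was 2.69 in UHRF1-AID cells, -0.21 in DNMT1-AID cells and 2.66 in UHRF1-AID/DNMT1-AID cells, with medians over all genes between 0.02 and 0.04. A member that is silent in WT could pass the filter only through a line in which it is counted, so these shares describe the 12 that passed and not the subfamily. The difference between the single degron lines was tested directly, and 7 of the 12 were higher in UHRF1-AID cells than in DNMT1-AID cells on day 8 (PCDHB2, PCDHB3, PCDHB7, PCDHB8, PCDHB9, PCDHB10 and PCDHB16), where 10.0% of all genes were. UHRF1-AID/DNMT1-AID differed from UHRF1-AID in 1, PCDHB13, by 1.36 on the log2 scale (SE 0.532, adjusted p = 0.0369, lost in 5 of 6 leave-outs at 1.15 to 1.53 over all 6), where 20.4% of all genes were higher and 23.5% lower.

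PCDHB2 had the smallest p of the 12 in both UHRF1-AID and UHRF1-AID/DNMT1-AID on day 8. Its level was 1.38, 2.02 and 1.14 CPM in UHRF1-AID, 0.0304, 0.0856 and 0.0509 CPM in DNMT1-AID and 2.24, 3.07 and 4.07 CPM in UHRF1-AID/DNMT1-AID on day 8, against no count in any WT library. All UHRF1-AID and UHRF1-AID/DNMT1-AID libraries were above all others, and the DNMT1-AID libraries held 1 or 2 counts each. With a floor of 3 counts over the WT group, PCDHB2 was at least 36.8-fold higher in UHRF1-AID (adjusted p = 1.29e-05) and at least 78.5-fold higher in UHRF1-AID/DNMT1-AID (adjusted p = 2.01e-07). On day 6 it had 0.144, 0.823 and 0.606 CPM in UHRF1-AID and 0.457, 0.974 and 1.90 CPM in UHRF1-AID/DNMT1-AID, against 0.192, 0 and 0 CPM in WT. Of its 4098 exonic bases only 2301 belong to no other gene, and the antisense RNA PCDHB1-AS1 overlaps it. The study's methods name a non-stranded mode for transposable elements, chosen for the library preparation, and the setting for genes is not given in the sources used here, so reads of the pair cannot be told apart. PCDHB1-AS1 itself had 16, 24 and 13 counts in UHRF1-AID cells, 1, 2 and 1 in DNMT1-AID cells and 16, 23 and 44 in UHRF1-AID/DNMT1-AID cells on day 8, against 0 in WT.

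PCDHB13 had 0.956, 0.917 and 0.716 CPM in UHRF1-AID, 0.364, 0.257 and 0.356 CPM in DNMT1-AID and 1.63, 2.18 and 2.82 CPM in UHRF1-AID/DNMT1-AID on day 8, against 0.0458, 0.585 and 0.236 CPM in WT. The 3 UHRF1-AID/DNMT1-AID libraries lay above all 9 others, and its rise over WT was 2.93 on the log2 scale (SE 0.617, adjusted p = 9.09e-05). The UHRF1-AID rise of 1.57 (SE 0.642, adjusted p = 0.0447) lost its call in 5 of the 6 ways to leave out a library, with values of 1.11 to 1.69, all but the one without WT day 8 replicate 2. PCDHB16 had 1.56, 1.80 and 1.01 CPM in UHRF1-AID, 0.0304, 0.0856 and 0 CPM in DNMT1-AID and 0.917, 0.840 and 2.13 CPM in UHRF1-AID/DNMT1-AID, against 0, 0 and 0.337 CPM in WT. It rose by 3.43 (SE 0.833, adjusted p = 0.00126) in UHRF1-AID and by 3.28 (SE 0.845, adjusted p = 0.00112) in UHRF1-AID/DNMT1-AID, with no overlap with WT in either.

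PCDHB7 had 0.389, 0.257 and 0.618 CPM in UHRF1-AID, 0.0304, 0 and 0.0509 CPM in DNMT1-AID and 0.255, 0.252 and 0.926 CPM in UHRF1-AID/DNMT1-AID on day 8, against 0.0458, 0 and 0.236 CPM in WT. The highest WT library was just below the lowest UHRF1-AID and UHRF1-AID/DNMT1-AID ones. The rise of PCDHB7 in UHRF1-AID/DNMT1-AID, 2.16 (SE 0.913, adjusted p = 0.0372), was lost without replicate 3 of that group (1.23) and without WT day 8 replicate 1 (1.86) or replicate 2 (1.65). PCDHB14 had 0.885, 0.844 and 0.976 CPM in UHRF1-AID, 0.941, 0 and 0.102 CPM in DNMT1-AID and 0.561, 1.85 and 2.29 CPM in UHRF1-AID/DNMT1-AID, against 0.137, 0.360 and 0.405 CPM in WT. It rose in UHRF1-AID/DNMT1-AID alone by the test (2.35, SE 0.720, adjusted p = 0.00471), although the 3 UHRF1-AID libraries were also above the 3 WT libraries. The high DNMT1-AID library is replicate 1.

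The following members were not picked by the rule for named genes and were chosen after their values were seen. PCDHB10 had 1.91, 2.24 and 1.5 CPM in UHRF1-AID, 0.0911, 0.0856 and 0 CPM in DNMT1-AID and 0.663, 0.798 and 3.42 CPM in UHRF1-AID/DNMT1-AID on day 8, against 0.183, 0.0900 and 0.607 CPM in WT. It rose in both UHRF1-AID (2.57, SE 0.645, adjusted p = 0.00144) and UHRF1-AID/DNMT1-AID (2.38, SE 0.652, adjusted p = 0.00171), the second lost without replicate 3 of that group (1.22). PCDHB9 was the 1 member lower in DNMT1-AID, with 0.213, 0 and 0.102 CPM against 0.412, 0.270 and 0.506 CPM in WT on day 8 (-1.76, SE 0.712, adjusted p = 0.0411), a call lost without any of WT replicates 1 and 3 or DNMT1-AID replicates 2 and 3 (-1.74 to -1.24). The same gene had 1.31, 1.5 and 1.04 CPM in UHRF1-AID and 0.917, 0.588 and 2.01 CPM in UHRF1-AID/DNMT1-AID, rises of 1.66 (SE 0.528, adjusted p = 0.0102) and 1.54 (SE 0.537, adjusted p = 0.0115). Both were lost without WT replicate 2 (1.46 and 1.34), and the second also without UHRF1-AID/DNMT1-AID replicate 3 (0.89).

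Against WT groups with no count on day 8, PCDHB3 was at least 6.84-fold higher in UHRF1-AID and 11.9-fold in UHRF1-AID/DNMT1-AID, PCDHB5 at least 4.27-fold and 16.6-fold, and PCDHB4 at least 14.0-fold in UHRF1-AID/DNMT1-AID. The UHRF1-AID count of PCDHB5 came mainly from 1 library (1, 0 and 14 counts). In UHRF1-AID/DNMT1-AID, replicate 3 held most of the counts of PCDHB4 (2, 5 and 32) and of PCDHB3 (7, 3 and 23). PCDHB8 rose in UHRF1-AID (2.81, SE 0.994, adjusted p = 0.0234) and PCDHB11 in UHRF1-AID/DNMT1-AID (2.07, SE 0.815, adjusted p = 0.0250). The UHRF1-AID calls of PCDHB3, PCDHB5 and PCDHB8 and the PCDHB11 call were each lost without at least 1 library: PCDHB3 without UHRF1-AID replicate 2, PCDHB5 without any WT library or UHRF1-AID replicate 3, PCDHB8 without WT replicates 1 or 2 or UHRF1-AID replicates 1 or 2 (2.31 at the lowest), and PCDHB11 without WT replicates 1 or 3 (2.04 and 1.84) or UHRF1-AID/DNMT1-AID replicate 3 (1.41). Of the 4 members below the filter, PCDHB15 had 4.56 times the WT CPM in UHRF1-AID (exact 95% counting interval 1.30 to 24.4) and 14.0 times in UHRF1-AID/DNMT1-AID (4.46 to 71.0). PCDHB6 was at least 4.56-fold higher in UHRF1-AID and at least 3.60-fold higher in UHRF1-AID/DNMT1-AID than in WT, where it had no count. Both bounds rest mainly on 1 library, with 11, 3 and 2 counts in UHRF1-AID and 8, 1 and 1 in UHRF1-AID/DNMT1-AID. PCDHB12 had at most 6 counts in any day 8 library, and PCDHB1 had 1 count in all 36 libraries together.

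The gamma shared count, taken as that of the constant exons, was the main source of the calls in that cluster as deposited. On day 8 it was 27.7, 21.5 and 33.8 CPM in UHRF1-AID, 24.0, 16.4 and 28.3 CPM in DNMT1-AID and 40.2, 46.7 and 34.7 CPM in UHRF1-AID/DNMT1-AID, against 16.8, 18.6 and 18.2 CPM in WT. The UHRF1-AID/DNMT1-AID libraries lay above all others, UHRF1-AID lay above WT, and DNMT1-AID overlapped WT. It rose by 1.19 on the log2 scale in UHRF1-AID/DNMT1-AID (SE 0.217, adjusted p = 1.92e-05) and by 0.63 in UHRF1-AID (SE 0.216, adjusted p = 0.0175), and UHRF1-AID/DNMT1-AID was above UHRF1-AID by 0.55 (SE 0.211, adjusted p = 0.0346). The DNMT1-AID difference of 0.36 (SE 0.217, adjusted p = 0.178) did not pass. The UHRF1-AID call was lost without WT day 8 replicate 1 (0.59) or UHRF1-AID day 8 replicate 3 (0.47), and the difference between UHRF1-AID/DNMT1-AID and UHRF1-AID was lost in 4 of 6 such leave-outs (0.40 to 0.72 over all 6). The summed own gamma counts on day 8 were 26.9, 18.7 and 32.2 CPM in UHRF1-AID and 18.4, 9.89 and 14.5 CPM in DNMT1-AID. In UHRF1-AID/DNMT1-AID they were 17.5, 18.3 and 18.2 CPM, below the 19.2, 24.2 and 20.9 CPM of WT. So the shared rise there had no rise of the summed own counts beside it, and the reason was not tested.

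The gamma shared count climbed with days in every line. In WT it was 6.87, 5.99 and 8.91 CPM on day 2, 12, 16.1 and 14.4 CPM on day 6 and 16.8, 18.6 and 18.2 CPM on day 8, a rise of 1.30 between days 2 and 8 (SE 0.237, adjusted p = 2.18e-05). In UHRF1-AID/DNMT1-AID it was 4.53, 7.08 and 4.40 CPM on day 2, 15.7, 15.9 and 14.3 CPM on day 6 and 40.2, 46.7 and 34.7 CPM on day 8. On days 2 and 6 each degron line overlapped WT or differed by no more than 0.51 on the log2 scale, with no call. The change of the difference with WT between days 2 and 8, tested as an interaction, was 0.98 in UHRF1-AID (SE 0.332, adjusted p = 0.0391) and 1.63 in UHRF1-AID/DNMT1-AID (SE 0.341, adjusted p = 0.000327), while in DNMT1-AID 0.87 (SE 0.343, adjusted p = 0.0825) did not pass. That DNMT1-AID value was called with a replicate block within each line, added after seeing the data (0.86), with DESeq2 (0.88) and in the fit of the compared groups only (0.87). The UHRF1-AID interaction was lost in 9 of 12 leave-outs, with values of 0.80 to 1.29.

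**Figure D2:**
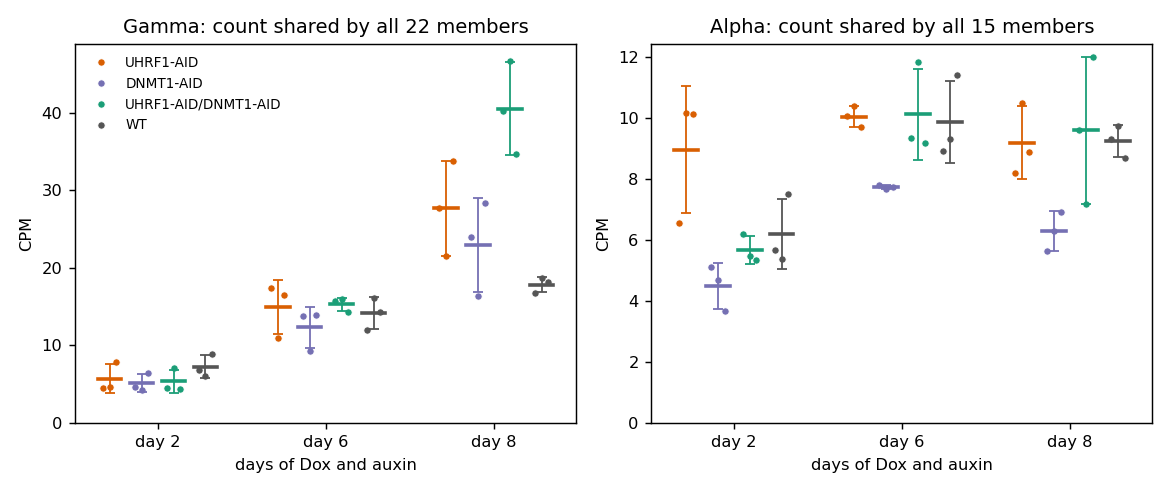
Shared count of the gamma cluster (left) and of the alpha cluster (right) in CPM by days of Dox and auxin, with libraries as points and the mean ± SD of 3 libraries as bars. The gamma value climbs with days in every line and is highest in UHRF1-AID/DNMT1-AID on day 8 (34.7 to 46.7 CPM), while the alpha value on day 8 is lowest in DNMT1-AID (5.62 to 6.92 CPM).

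Of the 22 gamma members, 14 passed the filter with their own counts. Members at or near 0 in WT could pass only through the groups where they were counted, so the counts describe the 14 that passed. PCDHGA2 and PCDHGA3, for example, each had 1 summed own count in WT on day 6 and 0 on day 8. On day 8, 7 of these rose and 0 fell in UHRF1-AID, 2 rose and 3 fell in DNMT1-AID, and 6 rose and 1 fell in UHRF1-AID/DNMT1-AID, where of all 15397 values tested with the counts so split 24.2% were higher and 21% lower, 25.1% higher and 22.4% lower, and 35.7% higher and 32.9% lower. On day 6, 5 rose in UHRF1-AID (14.3% of all values) and 7 in UHRF1-AID/DNMT1-AID (19.1%), and 0 fell in either (10.6% and 21.9% of all values were lower). In DNMT1-AID 0 rose and 1, PCDHGA9, fell on day 6 (-1.66, lost in 3 of 6 leave-outs at -2.16 to -1.31 over all 6), where 8.82% of all values were higher and 4.37% lower. Between the single degron lines, 9 of the 14 were higher in UHRF1-AID cells than in DNMT1-AID cells on day 8 and 0 were lower, against 10% and 8.22% of all values.

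PCDHGA2, a gamma A member, had own counts of 0.602, 0.991 and 1.24 CPM in UHRF1-AID, 0.121, 0.171 and 0 CPM in DNMT1-AID and 0.866, 1.97 and 2.01 CPM in UHRF1-AID/DNMT1-AID on day 8, against 0 in all 3 WT libraries. With the floor of 3 counts it was at least 23.4-fold higher in UHRF1-AID (adjusted p = 2.20e-06), at least 2.59-fold in DNMT1-AID (adjusted p = 0.0243) and at least 41.0-fold in UHRF1-AID/DNMT1-AID (adjusted p = 3.81e-08). The DNMT1-AID call rests on 4, 4 and 0 counts and was lost without any WT library or either library with counts. PCDHGA3 had 0.0354, 0.147 and 1.20 CPM in UHRF1-AID, 0.334, 0.0856 and 0 CPM in DNMT1-AID and 0.713, 0.714 and 1.13 CPM in UHRF1-AID/DNMT1-AID, again against 0 in WT. It was at least 12-fold higher in UHRF1-AID, a call lost without replicate 3, at least 4.21-fold in DNMT1-AID, a call lost without any WT library or DNMT1-AID replicate 1, and at least 21.2-fold in UHRF1-AID/DNMT1-AID.

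PCDHGB1, a gamma B member, had own counts of 1.31, 0.550 and 1.92 CPM in UHRF1-AID, 0.243, 0.0856 and 0.0509 CPM in DNMT1-AID and 1.33, 1.30 and 0.483 CPM in UHRF1-AID/DNMT1-AID on day 8, against 0, 0.0900 and 0.270 CPM in WT. UHRF1-AID and UHRF1-AID/DNMT1-AID lay wholly above WT, and DNMT1-AID overlapped it. PCDHGB1 rose by 3.21 in UHRF1-AID (SE 0.727, adjusted p = 0.000498) and by 2.91 in UHRF1-AID/DNMT1-AID (SE 0.749, adjusted p = 0.000915), and already on day 6 by 2.70 (SE 0.670, adjusted p = 0.00272) and 2.49 (SE 0.676, adjusted p = 0.00345). PCDHGA5 had 0.425, 0.807 and 0.943 CPM in UHRF1-AID, 0, 0.128 and 0 CPM in DNMT1-AID and 1.02, 0.420 and 0.644 CPM in UHRF1-AID/DNMT1-AID, against 0.0915, 0.0900 and 0.202 CPM in WT. It rose by 2.40 in UHRF1-AID (SE 0.695, adjusted p = 0.00516) and by 2.32 in UHRF1-AID/DNMT1-AID (SE 0.712, adjusted p = 0.00470). The own count of PCDHGB3 was 0.354, 0.257 and 0.423 CPM in UHRF1-AID, 0, 0 and 0.0509 CPM in DNMT1-AID and 0.561, 0.672 and 0.201 CPM in UHRF1-AID/DNMT1-AID, against 0.0915, 0.0900 and 0.0337 CPM in WT. It rose in both (2.26 and 2.70), the UHRF1-AID call being lost without WT day 8 replicate 3 (1.87).

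PCDHGB2 behaved differently in the 3 lines. Its own count on day 8 was 2.94, 2.71 and 2.99 CPM in UHRF1-AID, 1.00, 0.642 and 0.458 CPM in DNMT1-AID and 2.04, 1.47 and 1.45 CPM in UHRF1-AID/DNMT1-AID, against 1.74, 1.93 and 1.42 CPM in WT. The 3 UHRF1-AID libraries were above and the 3 DNMT1-AID libraries below every WT library, and UHRF1-AID/DNMT1-AID overlapped WT. It was lower in DNMT1-AID by 1.21 on the log2 scale (log2 fold change -1.21, SE 0.344, adjusted p = 0.00399) and higher in UHRF1-AID by 0.77 (SE 0.305, adjusted p = 0.0383). The UHRF1-AID call was lost in 5 of 6 leave-outs, all but the one without WT replicate 2, with values of 0.65 to 0.81. The difference between UHRF1-AID and DNMT1-AID was 1.98 (SE 0.332, adjusted p = 7.86e-05). PCDHGA9 had 0.673, 0.954 and 0.846 CPM in UHRF1-AID, 0.334, 0.0856 and 0.204 CPM in DNMT1-AID and 0.663, 0.798 and 1.25 CPM in UHRF1-AID/DNMT1-AID, against 0.641, 1.12 and 0.641 CPM in WT. Only the DNMT1-AID libraries lay apart from WT (-1.85, SE 0.503, adjusted p = 0.00287).

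**Figure D3:**
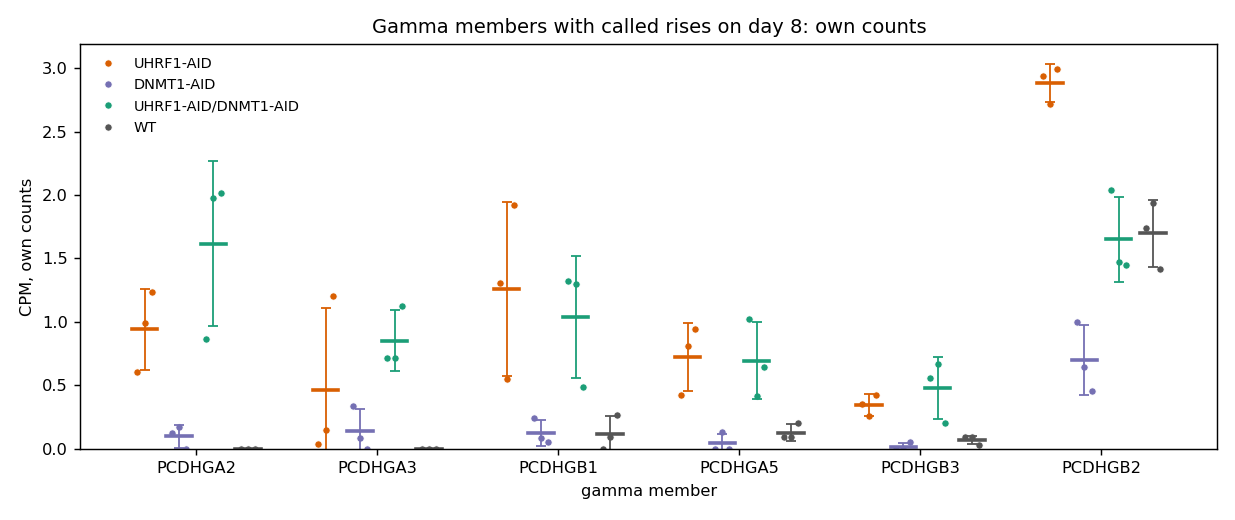
Own counts in CPM on day 8 of 6 gamma members that rose in at least 1 degron line, PCDHGA2, PCDHGA3, PCDHGB1, PCDHGA5, PCDHGB3 and PCDHGB2, for UHRF1-AID, DNMT1-AID, UHRF1-AID/DNMT1-AID and WT from left to right. Points are libraries and bars the mean ± SD of 3, with the lower error bar ending at the axis where it would pass below 0. PCDHGA2 and PCDHGA3 are at 0 in all WT libraries, and PCDHGB2 is highest in UHRF1-AID (2.71 to 2.99 CPM) and lowest in DNMT1-AID (0.458 to 1.00 CPM).

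The remaining gamma members had few own counts. On day 6 PCDHGA6 had 20, 42 and 60 own counts in UHRF1-AID cells, 7, 3 and 1 in DNMT1-AID cells and 37, 57 and 26 in UHRF1-AID/DNMT1-AID cells, against 11, 14 and 17 in WT. Its UHRF1-AID/DNMT1-AID rise on that day (1.33, SE 0.508, adjusted p = 0.0344) was lost in 5 of 6 leave-outs (1.11 to 1.42), all but the one without UHRF1-AID/DNMT1-AID replicate 3. PCDHGB7 had 1.03, 0.404 and 1.43 CPM in UHRF1-AID, 0.820, 0.428 and 0.204 CPM in DNMT1-AID and 1.07, 0.210 and 0.403 CPM in UHRF1-AID/DNMT1-AID on day 8, against 0.595, 0.810 and 0.506 CPM in WT, all overlapping and with no call. PCDHGB4, below the filter, had 0, 1 and 5 own counts in UHRF1-AID cells on day 8. It had 0, 0 and 3 in DNMT1-AID cells and 4, 7 and 10 in UHRF1-AID/DNMT1-AID cells, against 0, 0 and 2 in WT. On day 6, against 1 summed own count in WT, PCDHGB4 had 24 in UHRF1-AID/DNMT1-AID cells, 17 in UHRF1-AID cells and 4 in DNMT1-AID cells. With exact 95% counting intervals, these were 21.6 (3.52 to 889), 14.4 (2.25 to 600) and 4.16 (0.411 to 205) times the WT CPM. PCDHGA8 and PCDHGB4 share 4443 bases on the same strand, 2177 of them in the constant exons of all gamma members, so their reads cannot be told apart there. PCDHGA11 and PCDHGB6, named after their values were seen, also rose, PCDHGA11 in UHRF1-AID on day 8 (1.84, adjusted p = 0.0333, lost in 4 of 6 leave-outs at 1.16 to 3.01 over all 6) and PCDHGB6 in UHRF1-AID/DNMT1-AID on day 6 (2.63, adjusted p = 0.00409).

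PCDHGA10, PCDHAC2 and PCDHAC1 were lower in DNMT1-AID and in UHRF1-AID/DNMT1-AID on day 8, and none of them was called in UHRF1-AID. PCDHGA10 held 78.0% ± 1.62 (SD, n = 3) of the summed own gamma counts in WT on day 8. Its own count was 16.7, 9.61 and 17.8 CPM in UHRF1-AID, 15, 7.88 and 12.3 CPM in DNMT1-AID and 6.47, 6.51 and 8.05 CPM in UHRF1-AID/DNMT1-AID, against 14.6, 18.9 and 16.6 CPM in WT. The UHRF1-AID/DNMT1-AID libraries lay below all WT libraries, while UHRF1-AID and DNMT1-AID overlapped WT, replicate 2 being the lowest in both. PCDHGA10 fell by 1.25 on the log2 scale in UHRF1-AID/DNMT1-AID (SE 0.212, adjusted p = 4.70e-06) and stood 1.07 below UHRF1-AID there (log2 fold change -1.07, SE 0.212, adjusted p = 0.000132). The DNMT1-AID value of -0.51 (SE 0.204, adjusted p = 0.0411) was lost without DNMT1-AID replicate 2 (-0.29), DNMT1-AID replicate 3 (-0.53), WT replicate 2 (-0.41) or WT replicate 3 (-0.51). On day 2 PCDHGA10 was lower in UHRF1-AID (-0.80, adjusted p = 0.00726, lost without UHRF1-AID replicate 2 at -0.67) and in UHRF1-AID/DNMT1-AID (-0.65, adjusted p = 0.0335, lost in 5 of 6 leave-outs, with values of -0.68 to -0.55).

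PCDHAC2, a C-type member that in mice serves the spacing of serotonergic axons, was lower in DNMT1-AID and in UHRF1-AID/DNMT1-AID. Its own count on day 8 was 5.27, 3.34 and 6.47 CPM in UHRF1-AID, 3.98, 1.58 and 1.07 CPM in DNMT1-AID and 0.561, 2.14 and 0.644 CPM in UHRF1-AID/DNMT1-AID, against 6.18, 9.80 and 7.36 CPM in WT. DNMT1-AID and UHRF1-AID/DNMT1-AID lay wholly below WT, with DNMT1-AID replicate 1 apart from the other two of its group. It fell by 1.74 in DNMT1-AID (SE 0.309, adjusted p = 3.04e-05) and by 2.77 in UHRF1-AID/DNMT1-AID (SE 0.346, adjusted p = 2.85e-08), and the UHRF1-AID value of -0.62 (SE 0.286, adjusted p = 0.0753) did not pass. UHRF1-AID/DNMT1-AID was also below UHRF1-AID (-2.15, SE 0.350, adjusted p = 1.23e-05). On day 6 PCDHAC2 had 10.2, 10.7 and 10.4 CPM in UHRF1-AID, 7.99, 7.91 and 7.49 CPM in DNMT1-AID and 8.91, 9.74 and 7.47 CPM in UHRF1-AID/DNMT1-AID, against 11.7, 12.9 and 11.4 CPM in WT, with no call. The change of the UHRF1-AID/DNMT1-AID difference between days 2 and 8 was -2.29 (SE 0.462, adjusted p = 0.000205).

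PCDHAC1, the other C-type gene of the alpha cluster and named after its values were seen, was lower in DNMT1-AID on day 6 already. It had 1.77, 1.90 and 1.70 CPM in UHRF1-AID, 0.632, 0.961 and 1.04 CPM in DNMT1-AID and 1.60, 1.77 and 1.30 CPM in UHRF1-AID/DNMT1-AID on day 6, against 2.57, 2.72 and 2.78 CPM in WT. On day 8 it had 1.17, 1.87 and 1.53 CPM in UHRF1-AID, 0.334, 0.599 and 0.661 CPM in DNMT1-AID and 0.968, 1.05 and 0.886 CPM in UHRF1-AID/DNMT1-AID, against 1.78, 2.07 and 1.32 CPM in WT. DNMT1-AID was the lowest line on both days, with no overlap with any other line. PCDHAC1 fell by 1.63 on day 6 (SE 0.270, adjusted p = 4.41e-05) and by 1.73 on day 8 (SE 0.300, adjusted p = 1.58e-05) in DNMT1-AID. The UHRF1-AID/DNMT1-AID values of -0.78 and -0.82 (adjusted p = 0.0119 and 0.0100) were lost without UHRF1-AID/DNMT1-AID day 6 replicate 3 (-0.68) and without WT day 8 replicate 2 (-0.67). UHRF1-AID stood above DNMT1-AID by 1.04 on day 6 (0.84 and no call without DNMT1-AID replicate 1) and by 1.56 on day 8 (SE 0.299, adjusted p = 0.000435).

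**Figure D4:**
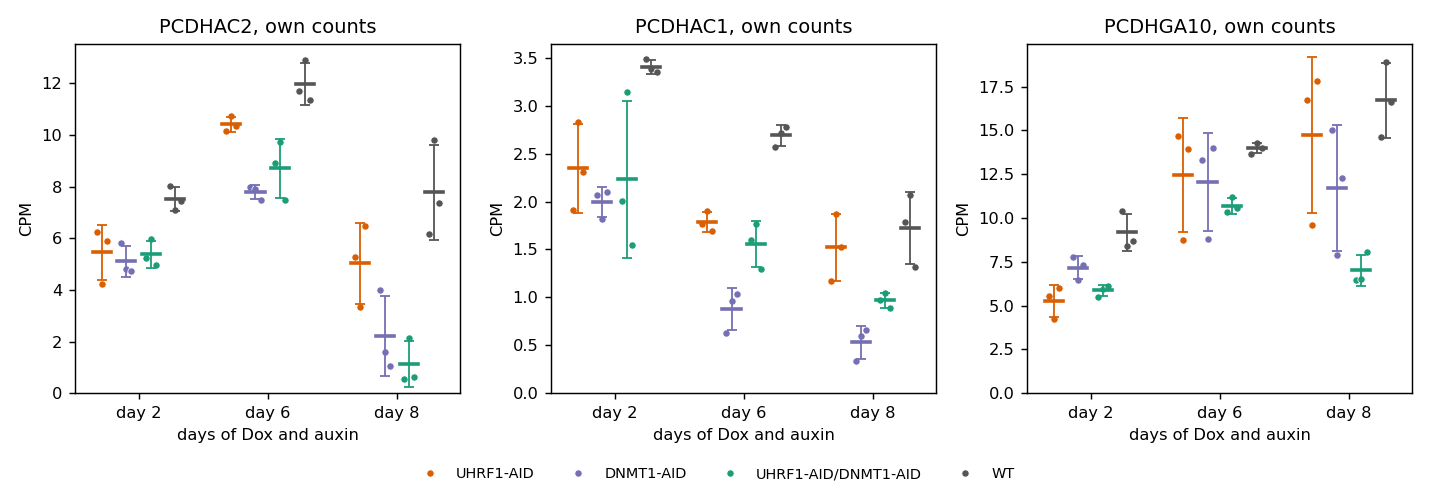
Own counts in CPM of PCDHAC2, PCDHAC1 and PCDHGA10 by days of Dox and auxin in UHRF1-AID, DNMT1-AID, UHRF1-AID/DNMT1-AID and WT, with libraries as points and the mean ± SD of 3 libraries as bars. On day 8 PCDHAC2 is at 0.561 to 2.14 CPM in UHRF1-AID/DNMT1-AID against 6.18 to 9.80 CPM in WT, and PCDHGA10 at 6.47 to 8.05 CPM against 14.6 to 18.9 CPM.

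The 3 gamma C-type genes were near 0 in most libraries. PCDHGC3 was the exception, and on day 6 its own count was 0.0722, 0.190 and 0.212 CPM in UHRF1-AID, 0, 0.0437 and 0.0451 CPM in DNMT1-AID and 0.849, 1.19 and 0.864 CPM in UHRF1-AID/DNMT1-AID, against 0.0767, 0 and 0.0343 CPM in WT. The UHRF1-AID/DNMT1-AID libraries lay above all others, and PCDHGC3 rose there by 4.49 (SE 0.932, adjusted p = 0.000305). On day 8 it had 1, 14 and 2 counts in UHRF1-AID/DNMT1-AID against 0, 0 and 0 in WT, at least 6.12-fold higher, and the call was lost without replicate 2. PCDHGC4 had no own count in any day 8 library, and PCDHGC5 had at most 5.

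The 13 alpha genes proper had few counts of their own. As deposited their counts on day 8 were nearly the alpha shared count, which was 8.18, 10.5 and 8.88 CPM in UHRF1-AID, 5.62, 6.29 and 6.92 CPM in DNMT1-AID and 9.58, 7.18 and 12 CPM in UHRF1-AID/DNMT1-AID, against 9.29, 9.71 and 8.67 CPM in WT. DNMT1-AID alone lay wholly below WT, by 0.56 on the log2 scale (log2 fold change -0.56, SE 0.172, adjusted p = 0.00754), and UHRF1-AID was above DNMT1-AID by 0.56 (SE 0.171, adjusted p = 0.0211, lost in 3 of 6 leave-outs at 0.45 to 0.63 over all 6). On day 2 the shared alpha count was higher in UHRF1-AID, at 6.54, 10.2 and 10.1 CPM, than in WT, at 5.67, 5.38 and 7.51 CPM (0.54, SE 0.176, adjusted p = 0.0215). The groups overlapped there, and the call was lost without WT replicates 1 or 2 (0.48 and 0.45) or UHRF1-AID replicates 2 or 3 (0.44 without either). PCDHA10 was the 1 alpha gene whose own count passed the filter, with 3, 12 and 9 counts in UHRF1-AID and 6, 4 and 5 in UHRF1-AID/DNMT1-AID on day 2 against 0, 1 and 0 in WT (adjusted p = 0.0121 and 0.0225), calls lost without WT replicate 1 or 3, and also without UHRF1-AID replicate 2 for the first and UHRF1-AID/DNMT1-AID replicate 1 for the second. On day 8 its own counts were 3, 0 and 1 in UHRF1-AID cells, 0, 1 and 0 in DNMT1-AID cells and 1, 3 and 6 in UHRF1-AID/DNMT1-AID cells, against 2, 0 and 4 in WT. PCDHA1 had 25 own counts in UHRF1-AID/DNMT1-AID replicate 3 and at most 4 in each of the other 11 day 8 libraries. Only 7 of the 5595 exonic bases of PCDHA1 belong to no other gene, and the strand setting for genes is not given. Its own counts therefore cannot be told apart from reads of overlapping genes. PCDHA10 shares 5309 bases with other genes on the same strand, of which 2869 are the constant exons. PCDHA6, PCDHA12 and PCDHA13 had no own count in WT or DNMT1-AID on day 8, and at most 1, 3 and 3 in UHRF1-AID and 0, 5 and 8 in UHRF1-AID/DNMT1-AID. On day 6 PCDHA12 had 7 summed own counts in UHRF1-AID and 9 in UHRF1-AID/DNMT1-AID, and PCDHA13 5 and 9, against 0 in WT. PCDHA11, named after its values were seen, had 15 and 18, against 0. Members of the alpha cluster with at least 3 own counts on day 6 numbered 5 to 7 of 15 in UHRF1-AID and 2 to 4 in DNMT1-AID. In UHRF1-AID/DNMT1-AID they numbered 5 to 9, against 2 to 4 in WT.

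So the makeup of the own counts was less uneven in UHRF1-AID/DNMT1-AID than in WT. PCDHGA10 made up 56.2% ± 5.50 of the own gamma counts in UHRF1-AID cells, 81.9% ± 2.48 in DNMT1-AID cells and 39.0% ± 4.62 in UHRF1-AID/DNMT1-AID cells on day 8, against 78.0% ± 1.62 in WT (SD, n = 3 each). PCDHAC2 made up 71.5% ± 10.3 of the own alpha counts in UHRF1-AID cells, 71.5% ± 19.9 in DNMT1-AID cells and 34.0% ± 18.1 in UHRF1-AID/DNMT1-AID cells, against 80.5% ± 3.33 in WT. The alpha shares of UHRF1-AID/DNMT1-AID rest on 44 to 93 own counts per library and on the 25 PCDHA1 counts of replicate 3. Summed own counts and shared counts did not move alike. The gamma ratio of own to shared counts was 0.933 ± 0.0537 in UHRF1-AID cells, 0.627 ± 0.130 in DNMT1-AID cells and 0.450 ± 0.0681 in UHRF1-AID/DNMT1-AID cells on day 8, against 1.20 ± 0.0896 in WT (SD, n = 3 each). All 9 degron libraries lay below all 3 WT libraries in that ratio. The mean gamma ratio was also lower on later days in WT, which stood at 1.57 ± 0.284 on day 2. On day 6 the gamma ratio was 1.64 ± 0.0794 in UHRF1-AID cells, 1.26 ± 0.0202 in DNMT1-AID cells and 1.57 ± 0.0915 in UHRF1-AID/DNMT1-AID cells, against 1.38 ± 0.199 in WT. The alpha ratio on day 8 was 0.771 ± 0.221 in UHRF1-AID cells, 0.474 ± 0.256 in DNMT1-AID cells and 0.340 ± 0.177 in UHRF1-AID/DNMT1-AID cells, against 1.04 ± 0.183 in WT. In WT the alpha ratio had been 1.84 ± 0.343 on day 2 and 1.54 ± 0.235 on day 6. The part of such a drop of own against shared counts in the called falls of PCDHGA10 and PCDHAC2 was not tested. These shares and ratios are descriptions and were not tested.

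**Figure D5:**
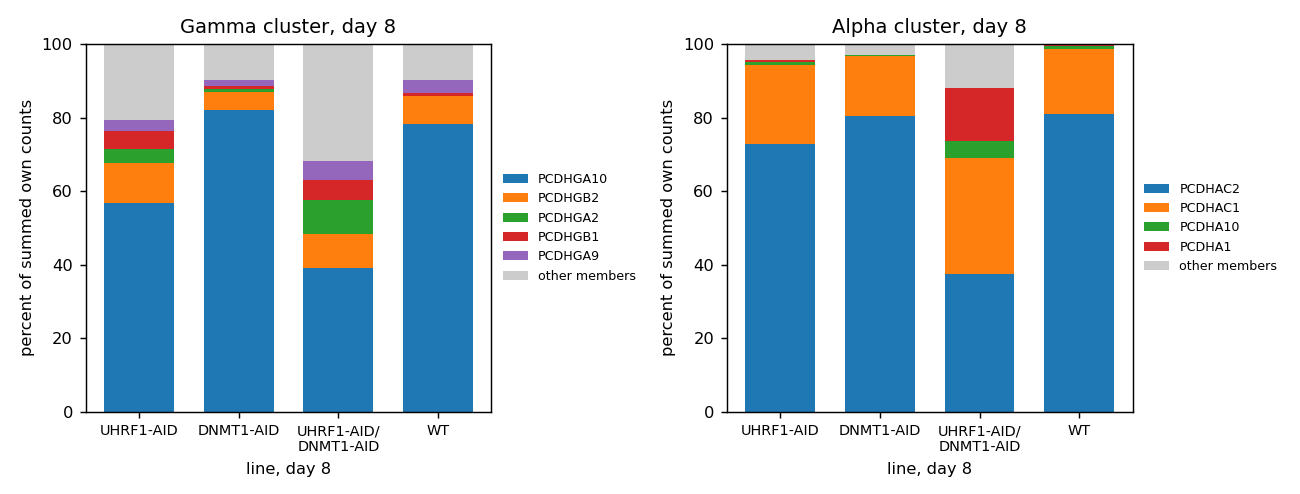
Share of each named member in the summed own counts of the gamma cluster (left) and of the alpha cluster (right) on day 8, in percent of the counts summed over the 3 libraries of UHRF1-AID, DNMT1-AID, UHRF1-AID/DNMT1-AID and WT, with all other members in grey. PCDHGA10 takes 39.2% in UHRF1-AID/DNMT1-AID against 78.2% in WT, and PCDHAC2 takes 37.3% against 81.0%. In DNMT1-AID the alpha bar is mostly replicate 1, which held 142 of 235 own counts for the group's 3 libraries together.

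Counted as deposited, where each alpha or gamma member repeats its shared count, 29 of the 49 members tested rose in UHRF1-AID on day 8 and 0 fell, 0 rose and 16 fell in DNMT1-AID, and 33 rose and 1 fell in UHRF1-AID/DNMT1-AID, beside the background shares of that day given above. The 1 that fell is PCDHAC2. Of the 29 and the 33, 21 and 22 were gamma members, and all 13 alpha genes were among the 16 that fell. The UHRF1-AID count was 11 without WT day 8 replicate 1 and 7 without UHRF1-AID day 8 replicate 3. On day 6, 1 rose in UHRF1-AID (14.3% of all genes), 0 rose and 3 fell in DNMT1-AID (8.84% of all genes higher and 4.35% lower) and 6 rose in UHRF1-AID/DNMT1-AID (19%). On day 2, 13 rose and 1 fell in UHRF1-AID, where 12.1% of all genes were higher and 14.4% lower, and the 13 are the alpha genes, whose call goes with the shared alpha count. On the same day 1 fell and 0 rose in DNMT1-AID (0.714% of all genes lower and 2.67% higher) and 0 were called in UHRF1-AID/DNMT1-AID (16.3% of all genes higher and 11.5% lower). In WT 37 members were higher and 0 lower on day 8 than on day 2, where 30.1% of all genes were higher and 29.7% lower. Of the 37, 36 were alpha or gamma members and 1 was the beta member PCDHB11. On day 6 against day 2, 37 were also higher and 0 lower in WT, all of them alpha or gamma members, where 35.7% of all genes were higher and 32.1% lower.

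Between the degron lines, 15 members as deposited were higher and 0 lower in UHRF1-AID against DNMT1-AID on day 2, where 7.21% of all genes were higher and 12.7% lower, then 4 and 0 on day 6 (5.52% and 5.1%) and 22 and 0 on day 8 (10.0% and 8.24%). In UHRF1-AID/DNMT1-AID against UHRF1-AID 0 were higher and 15 lower on day 2 (12.1% and 5.6% of all genes), 0 and 0 were called on day 6 (5.41% and 5.39%) and 21 were higher and 1 lower on day 8 (20.4% and 23.5%). The change of the difference with WT between days 2 and 8 was called higher in 23 members and lower in 0 for UHRF1-AID (10.7% and 7.09% of all genes), in 0 and 0 for DNMT1-AID (7.05% and 9.28%) and in 22 and 0 for UHRF1-AID/DNMT1-AID (16.1% and 22.6%). For DNMT1-AID 21 members were called higher with the block within each line, 20 with DESeq2 and 21 in the fit of the compared groups only. Groups without overlap on earlier days are read beside their own background, which for DNMT1-AID below WT was 9.45% of all genes on day 2 and 19.3% on day 6.

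The genes called in a comparison also differed in length. The median exonic length of genes higher on day 8 was 4077 bases in UHRF1-AID cells, 3518 in DNMT1-AID cells and 3885 in UHRF1-AID/DNMT1-AID cells, and of genes lower it was 6121, 6815.5 and 6204.5 bases, against 4997 over all genes tested. Between WT day 8 and day 2 the order was the other way, with 6467 bases for genes higher and 4102 for genes lower. In fits with offsets for GC content and length, 110 of 119 calls of beta members or own counts held. Own counts were given the length and GC content of the whole member there, and shared counts the median over members, with constant exons included in both. So those fits cannot decide the part of length in the calls of own or shared counts.

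Of 28 listed chromatin regulators of these clusters, 1 rose and 16 fell on day 8 in each of the 3 degron lines, with median log2 fold changes of -0.31 in UHRF1-AID cells, -0.34 in DNMT1-AID cells and -0.54 in UHRF1-AID/DNMT1-AID cells. Of all genes 21.0%, 22.4% and 32.8% fell in these lines. In WT itself 23 of the 28 were higher and 0 lower on day 8 than on day 2 (median log2 fold change 0.70), where 30.1% of all genes were higher. The 1 that rose was CTCFL, the germline paralog of CTCF, at 5.95 to 6.90 CPM in UHRF1-AID, 5.24 to 6.04 CPM in DNMT1-AID and 11.4 to 18.2 CPM in UHRF1-AID/DNMT1-AID, against 0 in every WT library. CTCF itself had 49.1 to 65.0 CPM in UHRF1-AID, 50.1 to 58.2 CPM in DNMT1-AID and 41.3 to 44.2 CPM in UHRF1-AID/DNMT1-AID, against 73.1 to 74.2 CPM in WT, and fell by 0.38, 0.46 and 0.78 on the log2 scale, with no overlap. SMCHD1, which in mice silences protocadherin clusters, fell by 0.71 in UHRF1-AID/DNMT1-AID (SE 0.107, adjusted p = 4.32e-07), and the cohesin subunit SMC1A fell by 1.25 (SE 0.104, adjusted p = 1.47e-12). RAD21, another cohesin subunit, fell by 0.60, the cohesin regulator PDS5A by 0.83 and the de novo methyltransferase DNMT3B by 0.95.

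Of 22 genes whose products bind or cleave clustered protocadherins, 6 rose and 6 fell in UHRF1-AID cells, 5 rose and 6 fell in DNMT1-AID cells and 9 rose and 8 fell in UHRF1-AID/DNMT1-AID cells on day 8. These shares were near those of all genes, of which 24.2% rose and 21.0% fell in UHRF1-AID, 25.1% rose and 22.4% fell in DNMT1-AID and 35.7% rose and 32.8% fell in UHRF1-AID/DNMT1-AID. The beta-catenin gene CTNNB1 (-1.07), the gamma-secretase subunit gene APH1A (-0.84) and ABI2 of the WAVE complex (-0.87) had the smallest p there. Nonclustered protocadherins, which stand alone in the genome, gave 1 that rose and 2 that fell in UHRF1-AID cells, 0 and 0 in DNMT1-AID cells and 2 that rose and 2 that fell in UHRF1-AID/DNMT1-AID cells, of 6 tested (12 listed), against the same shares of all genes. PCDH7 was at 12.2 to 22.5 CPM in UHRF1-AID/DNMT1-AID against 58.0 to 62.6 CPM in WT (-1.87), and PCDH1, which lies near the gamma cluster, at 28.2 to 35.9 CPM against 60.4 to 73.0 CPM (-1.10). PCDH20 had 0.168 to 0.564 CPM against no count in WT. Of 31 other protein-coding genes within 500 kb of the clusters, 28 were tested, and 7 rose and 4 fell in UHRF1-AID cells, 9 rose and 4 fell in DNMT1-AID cells and 11 rose and 9 fell in UHRF1-AID/DNMT1-AID cells, where the same shares of all genes apply. HDAC3, beyond DIAPH1 from the gamma cluster, fell to 42.4 to 47.7 CPM in UHRF1-AID/DNMT1-AID, against 87.9 to 94.3 CPM in WT.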

How the data were processed

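RNA-seq read counts per gene, deposited by the authors for each of 36 libraries, are whole counts with no normalization, made with Trim Galore, STAR and featureCounts on hg38 from polyA RNA (NEB Next Ultra kit). The strand setting for genes (the methods give a non-stranded mode for transposable elements), the annotation release and the treatment of overlapping features are not given in the sources used here. Of 60648 IDs, 60462 matched GENCODE v44, 0 entries named no gene and 186 did not match. Protein-coding genes passing filterByExpr (minimum count 10) were fitted together, 15415 genes over 12 groups with 24 residual degrees of freedom, by edgeR 4.0.16 (R 4.3.3, limma 3.58.1) with TMM scaling and the robust quasi-likelihood test. P-values were adjusted by Benjamini-Hochberg over all genes tested and called at 0.05. The table with shared and own counts apart was fitted the same way on 15397 values. A group without counts was given a floor of 3 counts in all, so such folds are lower bounds. Intervals and floors cover counting error only.

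Named members were up to 4 per subfamily of smallest unadjusted p over the 9 comparisons with WT, 2 of highest mean CPM in WT and up to 2 called members whose sign went against their subfamily's median. The members and lists were chosen with earlier results of these data known. Alternatives were library size scaling, DESeq2 1.42.0, no filter on low counts, all annotated genes, a replicate block, offsets for GC content and length, fits of the compared groups only and leaving out each library, and, added after seeing the data, the split of shared counts and a block within each line. The fit was tested on simulated counts of UHRF1-AID/DNMT1-AID against WT on day 8 (14846 genes), where the share recovered was 76.1% at a 1.5-fold change and 100% at 2-fold and at 4-fold. The changed genes were drawn from well-counted genes only, and all genes were given the same spread, the common dispersion of 0.0115. These shares therefore do not describe beta members or own counts with few counts. Replicate numbers did not pair the lines, since in no comparison did all 3 same-numbered correlations exceed 0.1. Across days within a line, same-numbered libraries correlated at 0.186 to 0.383 in UHRF1-AID cells, 0.119 to 0.287 in DNMT1-AID cells, -0.071 to 0.309 in UHRF1-AID/DNMT1-AID cells and -0.05 to 0.03 in WT. Promoter windows came from RefSeq GRCh38.p14. Methylation data and other days were not analysed here.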

Additional observations from a re-analysis of the deposited data

Results flagged for a closer look

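The difference between a degron line and WT changed between days 2 and 8, by a test of that change itself, in the following cases. In UHRF1-AID 23 of the 49 members as deposited were called higher in this test, where 10.7% of all genes were. The shared gamma count behind 22 of them changed by 0.98 on the log2 scale, and both this value and the count of members lost their call in 9 of 12 fits without a library, among which the count was as low as 0. PCDHB9 changed by 3.63 in UHRF1-AID (SE 1.30, adjusted p = 0.0490 by edgeR's quasi-likelihood test), and lost its call in 11 of 12 such fits.

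In UHRF1-AID/DNMT1-AID 22 members as deposited were called higher, where 16.1% of all genes were, and 22 to 24 were so without any 1 library. The shared gamma count changed by 1.63 there. The own count of PCDHAC2 changed by -2.29, with 0.561, 2.14 and 0.644 CPM on day 8 in UHRF1-AID/DNMT1-AID, against 6.18, 9.80 and 7.36 CPM in WT.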

How the results depend on the processing

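Of 119 calls of beta members or own counts, the shared counts not among them, 114 held with library sizes alone, 112 with DESeq2, 108 with no filter on low counts, 115 with all annotated genes, 110 with offsets for GC content and length, 118 with a replicate block and 112 with both, and 70 of 77 held in fits of the compared groups only. Without 1 library 538 of 726 held, and none of these settings reversed a call. The depth limits the beta members and the own counts most, since many rest on fewer than 10 counts a library. Causes of the changes below were not tested. The split takes the shared count out of the reads of each alpha and gamma member by construction, while the number of members called moved in both directions.

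With the shared counts split off, an alternative added after seeing the data, members higher than in WT numbered 1 in UHRF1-AID and 1 in UHRF1-AID/DNMT1-AID on day 2 (13 and 0 as deposited), 6 and 13 on day 6 (1 and 6) and 15 and 17 on day 8 (29 and 33), with 2 in DNMT1-AID on day 8 (0). Members lower were 1 in UHRF1-AID/DNMT1-AID on each of days 2 and 6 (0), and 6 in DNMT1-AID and 3 in UHRF1-AID/DNMT1-AID on day 8 (16 and 1). UHRF1-AID against DNMT1-AID gave 0 higher on day 2 (15) and 12 on day 6 (4). UHRF1-AID/DNMT1-AID against UHRF1-AID gave 0 lower on day 2 (15), 1 higher on day 6 (0), and 1 higher and 3 lower on day 8 (21 and 1). The change from day 2 to day 8 gave 1 higher in UHRF1-AID (23) and 0 higher and 1 lower in UHRF1-AID/DNMT1-AID (22 and 0). WT gave 6 higher on day 6 (37), and 4 higher and 1 lower on day 8 (37 and 0).

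In fits of the compared groups only, members higher were 0 in UHRF1-AID on day 2 (13), 2 in UHRF1-AID and 2 in UHRF1-AID/DNMT1-AID on day 6 (1 and 6), 6 in UHRF1-AID against DNMT1-AID on day 8 (22) and 21 in the change of DNMT1-AID (0). Members lower were 2 in DNMT1-AID and 1 in UHRF1-AID/DNMT1-AID on day 2 (1 and 0), 15 in DNMT1-AID on day 6 (3), and 0 in UHRF1-AID/DNMT1-AID against UHRF1-AID on days 2 and 8 (15 and 1). The alpha shared count lost its call at 0.55 in UHRF1-AID on day 2, at -0.69 in UHRF1-AID/DNMT1-AID against UHRF1-AID on day 2 and at 0.56 in UHRF1-AID against DNMT1-AID on day 8, gained one at -0.36 in DNMT1-AID on day 6 and was 0.004 in UHRF1-AID on day 8 (-0.005). The gamma shared count gained a call at 0.87 in the change of DNMT1-AID.

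The change of UHRF1-AID gave 10 members higher (23) and a gamma shared value of 0.97, no longer called, both with no filter and with all annotated genes, 4 and 0.89 with library sizes alone, and 5 and 0.82 with GC content and length. With no filter, with all annotated genes and with GC content and length, 0 members were lower in UHRF1-AID on day 2 (1). UHRF1-AID/DNMT1-AID against UHRF1-AID on day 8 gave 7 members higher (21) and a gamma shared value of 0.54 with no filter, and 0 and 0.43 with library sizes alone, neither value called. Library sizes alone also gave 2 lower in DNMT1-AID and 2 in UHRF1-AID/DNMT1-AID on day 2 (1 and 0) and 1 lower in UHRF1-AID on day 8 (0), and turned the uncalled alpha shared value to -0.13 in UHRF1-AID/DNMT1-AID against WT and to -0.049 against UHRF1-AID on day 8. GC content and length gave 1 lower in UHRF1-AID/DNMT1-AID on day 2 (0), 2 higher in DNMT1-AID on day 8 (0), 2 higher in the change of DNMT1-AID (0), 24 higher in WT on day 6 (37), and uncalled values of 0.042 for alpha shared in UHRF1-AID on day 8 and -0.017 for gamma shared in UHRF1-AID on day 6. DESeq2 gave 2 lower in DNMT1-AID on day 2 (1), 1 higher and 1 lower in UHRF1-AID/DNMT1-AID on day 2 (0 and 0), 2 higher in UHRF1-AID on day 6 (1), 20 higher in the change of DNMT1-AID (0) with gamma shared called at 0.88, and 0.012 for alpha shared in UHRF1-AID on day 8.

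With the replicate block, 2 members were lower in DNMT1-AID and 1 in UHRF1-AID/DNMT1-AID on day 2 (1 and 0), 2 higher in UHRF1-AID on day 6 (1) and 1 higher in the change of DNMT1-AID (0), and it lost 1 of the 119 single calls. Same-numbered libraries of different lines correlated between -0.08 and 0.127. The block with GC content and length gave 1 lower in UHRF1-AID/DNMT1-AID on day 2, 2 higher in UHRF1-AID on day 6, 2 higher in DNMT1-AID on day 8, 11 higher in the change of UHRF1-AID with gamma shared at 0.81, 2 higher in the change of DNMT1-AID, and uncalled values of 0.039 for alpha shared in UHRF1-AID on day 8 and -0.029 for gamma shared in UHRF1-AID on day 6. A block within each line, also added later, gave 21 higher in the change of DNMT1-AID and called its gamma shared value at 0.86.

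Without 1 library, members ranged from 0 to 13 higher and 0 to 2 lower in UHRF1-AID and 0 to 1 lower in DNMT1-AID on day 2, 0 to 2 higher in UHRF1-AID cells, 1 to 3 lower in DNMT1-AID cells and 0 to 1 lower in UHRF1-AID/DNMT1-AID cells on day 6, and 7 to 28 higher in UHRF1-AID and 0 to 3 higher in DNMT1-AID on day 8. They ranged from 2 to 3 higher in UHRF1-AID against DNMT1-AID on day 6 and 7 to 22 on day 8, from 9 to 15 lower in UHRF1-AID/DNMT1-AID against UHRF1-AID on day 2, and 0 to 22 higher and 0 to 1 lower on day 8. The change gave 0 to 22 higher and 0 to 12 lower in UHRF1-AID, 0 to 21 and 0 to 1 in DNMT1-AID, and 0 to 1 lower in UHRF1-AID/DNMT1-AID. Alpha shared values ranged from 0.436 to 0.716 in UHRF1-AID and -0.216 to 0.037 in UHRF1-AID/DNMT1-AID on day 2, -0.047 to 0.142 and -0.096 to 0.153 on day 6, and -0.111 to 0.071 and -0.14 to 0.233 on day 8. For UHRF1-AID/DNMT1-AID against UHRF1-AID they were -0.119 to 0.074 on day 6 and -0.137 to 0.236 on day 8, with 0.45 to 0.631 on that day between UHRF1-AID and DNMT1-AID, and for the changes -0.721 to -0.441 in UHRF1-AID cells, -0.26 to 0.008 in DNMT1-AID cells and -0.015 to 0.358 in UHRF1-AID/DNMT1-AID cells. Gamma shared values ranged from -0.041 to 0.265 on day 6 and 0.466 to 0.785 on day 8 in UHRF1-AID, from -0.152 to 0.366 in UHRF1-AID against DNMT1-AID on day 2, from -0.353 to 0.213, -0.148 to 0.157 and 0.398 to 0.72 in UHRF1-AID/DNMT1-AID against UHRF1-AID on days 2, 6 and 8, and from 0.804 to 1.293 in the change of UHRF1-AID and 0.692 to 1.077 in that of DNMT1-AID.

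Scaling by library size alone put the median log2 fold change of all genes at -0.15 in DNMT1-AID and in UHRF1-AID/DNMT1-AID on day 8, where TMM gave 0.02 and 0.03. In WT on days 6 and 8 against day 2 it was 0.36 and 0.17, where TMM gave 0.07 and 0. The share of all calls that were higher was 43.5% in UHRF1-AID cells, 30.9% in DNMT1-AID cells and 39.6% in UHRF1-AID/DNMT1-AID cells on day 8 with library sizes alone, and 53.5%, 52.8% and 52.1% with TMM.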
